A study of Homo sapiens with 9 samples.

Results

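The 10 genes that fill, empty and refill the calcium store of the endoplasmic reticulum (ER) were followed in K562 cells transduced with Del52, Ins5 or wild-type calreticulin (CALR). They were chosen by function, with earlier results of these data known: the pumps ATP2A2 and ATP2A3, the release channels ITPR1, ITPR2 and ITPR3, the store sensors STIM1 and STIM2, and the entry channels ORAI1, ORAI2 and ORAI3. All 10 were measured, among 18239 genes on the array. Each is represented by the probe set with a single gene symbol and the highest mean over 9 arrays, and the other 19 of their 29 probe sets served as a check.

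K562 is an established human leukaemia line with erythroid character. The 3 groups were cells transduced with the Del52 form of CALR, cells transduced with the Ins5 form and cells transduced with the wild-type (WT) form, with 3 Affymetrix arrays each. All groups went through 4 retroviral infections at 12 h intervals, a further 36 h of culture and magnetic selection for the NGFR surface marker, and the NGFR-positive share 48 h after selection was above 90%. Each group was a selected bulk population rather than a clone, so fewer cells of a type and less RNA per cell cannot be told apart. WT means added wild-type CALR, and no untransduced cells were among the samples analysed. The labels do not say whether replicates were separate cultures, so the p-values measure only the spread between these samples, which may be technical.

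ATP-driven SERCA pumps move calcium from the cytosol into the ER, where calreticulin and other luminal proteins bind it. Signals that make inositol trisphosphate (IP3) open the IP3 receptors and let calcium out. When the store empties, STIM proteins in the ER membrane sense the loss and open ORAI channels in the plasma membrane, a route called store-operated entry. Calreticulin carries low-affinity calcium sites near its C-terminus, the part of the protein that Del52 and Ins5 alter.

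In the arrays STIM1 separated Ins5 from the other groups. The main ITPR1 probe set separated the mutants from each other, while its other probe sets overlapped. ATP2A2 was the member whose levels separated both mutants from WT. The ATP2A2 promoter is therefore shown, beside those of luminal calcium binders of the ER and the wider secretory pathway. The sequences are from RefSeq (GRCh38.p14) and cover 250 bases before to 50 bases after an annotated transcript start. Windows were found for 7 of the 10 members (11 windows) and for 11 of 12 luminal calcium binders (16 windows). They were searched on both strands for the ER stress response element, CCAAT and CCACG separated by 9 bases of any kind, allowing 1 mismatch in its 10 fixed bases. Of all 35116 promoter windows, 1.55% held such a match and 0.0769% held one without a mismatch. Among the members the motif was found in 1 window, that of the downstream ATP2A2 start (chr12:110280997-110281296, plus strand, capitals mark both boxes of the motif).
ATP2A2 promoter: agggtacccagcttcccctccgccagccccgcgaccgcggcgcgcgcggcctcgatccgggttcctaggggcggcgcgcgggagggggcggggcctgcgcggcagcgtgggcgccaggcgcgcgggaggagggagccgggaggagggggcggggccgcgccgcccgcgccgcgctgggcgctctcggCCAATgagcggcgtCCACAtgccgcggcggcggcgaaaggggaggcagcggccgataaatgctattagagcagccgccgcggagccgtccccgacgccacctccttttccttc

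The matches below, each 5′ to 3′ on the strand that carries the motif, set the ATP2A2 element beside those of the luminal binders, with the boxes in capitals. ATP2A2 (chr12:110281184-110281202, plus strand) differs from the motif by G19A, counted from 1 at the motif's 5′ end. SDF4 (chr1:1232112-1232130, minus strand) differs by C15T. The remaining 5 sequences have no mismatch: CALR (chr19:12938384-12938402, minus strand), HSPA5 (chr9:125241391-125241409, minus strand), CANX (chr5:179698778-179698796, plus strand) and both HSP90B1 sites (chr12:103930216-103930234, plus strand, and chr12:103930321-103930339, minus strand). HSP90B1 had 2 further sites with 1 mismatch. Of the 11 luminal genes with a window 5 held a match, and PDIA4, RCN1, RCN2, CALU, NUCB1 and NUCB2 held none. A match describes these letters only, and binding was not measured.
ATP2A2: CCAATgagcggcgtCCACA
SDF4: CCAATcggcggccgTCACG
CALR: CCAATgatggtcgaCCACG
HSPA5: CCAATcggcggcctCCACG
CANX: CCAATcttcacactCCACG
HSP90B1, first site: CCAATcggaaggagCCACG
HSP90B1, second site: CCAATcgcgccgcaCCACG

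All levels below are the authors' RMA expression values on the log2 scale, in which 1 unit is a doubling, and they are compared only within a probe set. The CALR probe set read 7.61, 7.25 and 7.40 in Del52, 7.48, 7.47 and 7.26 in Ins5 and 7.29, 7.67 and 7.73 in WT, and the groups overlapped. Where the probes lie relative to the transduced sequence is not known here, so CALR does not check the labels. Antigenomic control probes, which match no human sequence, spanned 1.53 to 6.52, with a median of 2.01. Within that span lay ITPR2, ITPR3, STIM1, STIM2, ORAI1 and ORAI2 on every array, ATP2A3 on 3 arrays (6.18, 6.44 and 6.12) and ORAI3 on 1 (6.42). ATP2A2 and ITPR1 lay above it on all arrays by their main probe sets. Of 8 measured K562 markers, 7 had means above the span (HBG1 at 11.91). The defining markers of T cells, B cells and fibroblasts all had means within it. Monocyte markers CD14, CSF1R and FCN1 were at 2.16, 3.80 and 2.50, while LYZ averaged 9.65, and among epithelial markers EPCAM and KRT18 were above the span.

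The arrays of a group differed widely. Of the variance over all genes, 70.5% lay along 1 axis, the first principal component, with WT replicate 2 at one end (score 0.57) and WT replicate 3 at the other (-0.575).

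ATP2A2 encodes SERCA2, the widely expressed calcium pump of the ER. It read 9.78, 9.76 and 9.76 in Del52, 9.76, 9.80 and 9.67 in Ins5 and 9.45, 9.44 and 9.56 in WT. All 6 mutant arrays lay above all 3 WT arrays, and the mutants overlapped each other. Relative to WT the pump was 1.22-fold in Del52 (log2 fold change 0.28 ± 0.05 SE, 95% interval 0.17 to 0.40) and 1.20-fold in Ins5 (0.26 ± 0.05, 0.14 to 0.38). Neither passed the limma test with Benjamini-Hochberg adjustment over all genes (adjusted p = 0.603 and 0.466, unadjusted p = 0.000596 and 0.00105). Del52 and Ins5 differed by 0.02, with an interval of -0.09 to 0.14. Both comparisons share the same WT arrays, so they are not independent of each other.

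The mean of both mutants against WT gave ATP2A2 a log2 fold change of 0.27 ± 0.04 (SE), with limma adjusted p = 0.467 and an unadjusted p = 0.000312, the 7th smallest of 18239 genes. With the first principal component as a covariate the value was 0.27 and the adjusted p = 0.0333, 1 of 68 genes called under that setting. For the single mutants that setting gave adjusted p = 0.0507 (Del52) and 0.0576 (Ins5). Without WT replicates 2 and 3 the fold changes were 0.32 in Del52 and 0.29 in Ins5, resting on 1 WT array. Between-group differences held 89.0% of the variance of ATP2A2 over the 9 arrays, against a median of 21.3% over all genes.

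**Figure D1:**
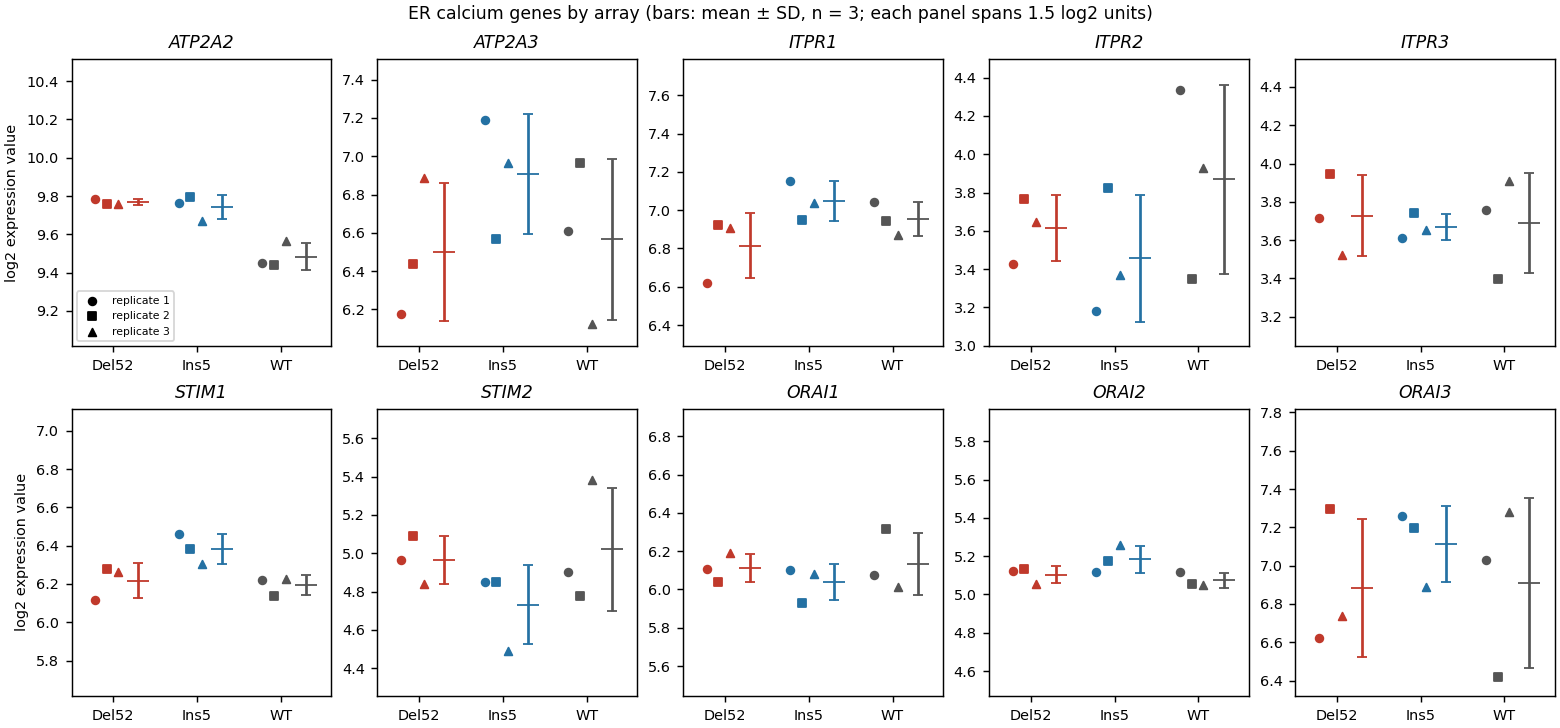
Log2 expression values of the 10 members on each array (points, shaped by replicate) in Del52, Ins5 and WT, with the mean and SD of 3 arrays. All 6 mutant arrays lie above the WT arrays for ATP2A2, all Ins5 arrays lie above the others for STIM1, and the WT arrays of ITPR2 and ORAI3 are far apart.

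The other 5 ATP2A2 probe sets were all higher in both mutants, between 0.23 and 0.36 in Del52 and between 0.16 and 0.36 in Ins5. Counting the main one, 4 of 6 did not overlap with WT in Del52 and 5 of 6 did not in Ins5. Over all genes, each by its main probe set, 10.6% and 11.5% did not overlap, in either direction. The dimmest ATP2A2 probe set, at 3.17 to 3.70, lay within the antigenomic span on every array. Those at 5.92 to 6.53 and at 5.76 to 6.58 lay within it on all arrays but Del52 replicate 1. The third in mean level read 7.10, 7.16 and 7.11 in Del52, 7.22, 7.11 and 7.07 in Ins5 and 6.71, 6.76 and 6.85 in WT, with log2 fold changes of 0.35 and 0.36 (limma, all probe sets fitted, adjusted p = 0.561 and 0.483). The 4 others had Del52 replicate 1 highest and WT replicate 1 lowest of all arrays. In the one with the largest difference in Del52 (0.36) these arrays read 6.58 and 5.76. The probe sets measure the same 9 RNA samples, so they are not separate evidence for a difference between groups, and which transcripts each detects is not known here.

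**Figure D2:**
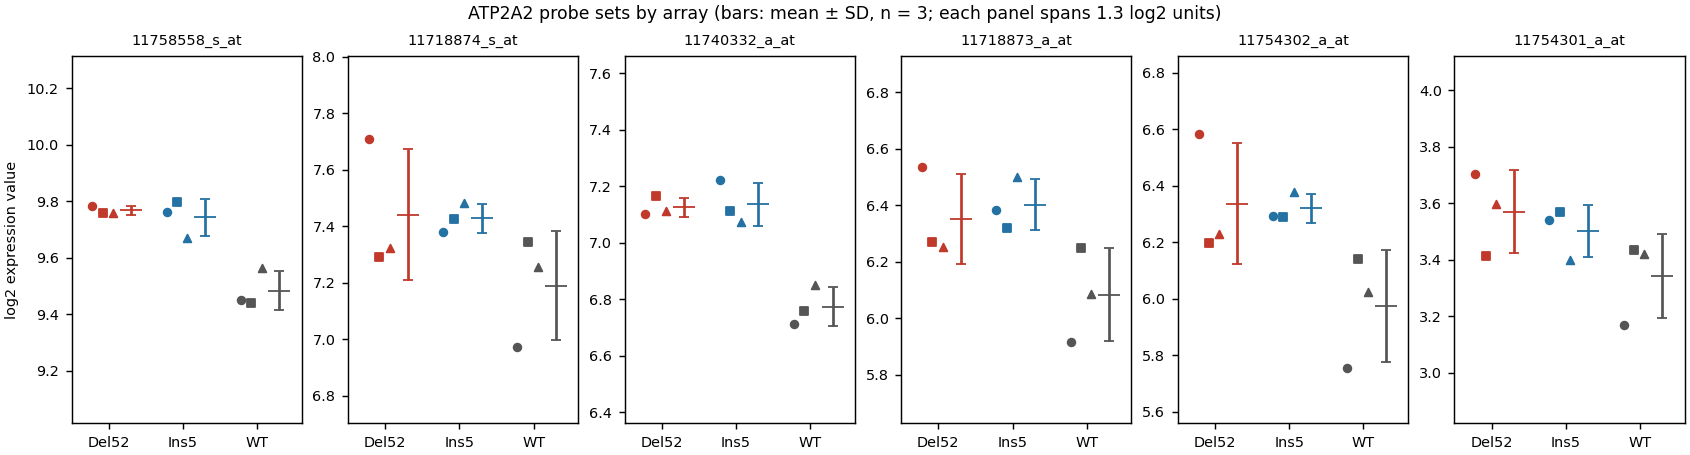
Log2 values of the 6 ATP2A2 probe sets on each array in Del52, Ins5 and WT, with mean and SD of 3 arrays, ordered by mean level. Every probe set has higher means in both mutants than in WT, and 2 of them, the first and the third, have the WT arrays closest together.

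Array controls were set beside ATP2A2. The hybridisation spike, RNA added in known amount, read 8.80 to 8.89 in Del52, 8.81 to 8.83 in Ins5 and 8.72 to 8.82 in WT, where replicates 1 and 2 were the lowest of the 9 arrays. ATP2A2 too was lowest in WT replicates 1 and 2. The actin 3-prime minus 5-prime difference, a measure of RNA integrity, was 1.18 to 1.33, 1.22 to 1.38 and 1.08 to 1.39, with no separation of the groups. For GAPDH that difference was 0.09 to 0.10, 0.08 to 0.17 and 0.03 to 0.11. The labelling spike, another added control, read 4.07 to 4.32, 3.89 to 4.11 and 3.92 to 4.22. Neither separated the groups. LYZ, the abundant monocyte marker, read 9.58 to 9.83 in Del52, 9.59 to 9.78 in Ins5 and 9.40 to 9.61 in WT. The log2 summed level of the 4 monocyte markers, which is mostly LYZ, was 9.63 to 9.87, 9.64 to 9.82 and 9.45 to 9.66. The other markers of that class did not follow LYZ. CD14 stayed between 2.07 and 2.24. CSF1R read 3.66 to 3.85 in Del52, 3.72 to 3.88 in Ins5 and 3.84 to 3.88 in WT. FCN1 read 2.44 to 2.53, 2.44 to 2.57 and 2.49 to 2.55. The part of these controls and of LYZ in the ATP2A2 difference was not tested.

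ATP2A3 encodes SERCA3, the pump typical of blood cells. It read 6.18, 6.44 and 6.88 in Del52, 7.19, 6.57 and 6.96 in Ins5 and 6.61, 6.96 and 6.12 in WT. The groups overlapped throughout, and WT replicates 2 and 3 alone differed by 0.84. The log2 fold change was -0.07 in Del52 (95% interval -0.68 to 0.55) and 0.34 in Ins5 (-0.27 to 0.96), with limma adjusted p = 1 and 0.864. Its other probe sets gave 0.07 and 0.07 in Del52 and 0.04 and 0.03 in Ins5, so the sign in Del52 depended on the probe set. The difference seen in ATP2A2 lies inside both intervals.

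The IP3 receptors are the calcium release channels of the ER. ITPR1 read 6.62, 6.92 and 6.91 in Del52, 7.15, 6.95 and 7.04 in Ins5 and 7.04, 6.94 and 6.87 in WT. Every Del52 array lay below every Ins5 array, and each mutant overlapped with WT. Del52 against Ins5 gave -0.23 ± 0.10 (SE; limma adjusted p = 0.855, unadjusted p = 0.0424), and without Del52 replicate 1 it was -0.13. Against WT the values were -0.14 in Del52 and 0.10 in Ins5 (adjusted p = 0.863 and 0.928). Against WT the 2 other ITPR1 probe sets had the same signs as the main one, with -0.12 and -0.05 in Del52 and 0.05 and 0.01 in Ins5. In Del52 against Ins5 they gave -0.17 and -0.06, and in both the mutants overlapped.

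ITPR2 had the widest WT spread of the members. It read 3.43, 3.76 and 3.65 in Del52, 3.18, 3.83 and 3.37 in Ins5 and 4.33, 3.35 and 3.93 in WT, where replicate 1 was the highest of all arrays and replicate 2 lay inside the mutant range. The log2 fold changes of -0.26 in Del52 (95% interval -0.86 to 0.34) and -0.41 in Ins5 (-1.01 to 0.19) had limma adjusted p = 0.930 and 0.796. Without WT replicate 1 they were -0.03 and -0.18. Its 2 other probe sets, at 2.21 to 2.62, gave 0.17 and 0.05 in Del52. ITPR3 read 3.72, 3.94 and 3.52 in Del52, 3.61, 3.74 and 3.65 in Ins5 and 3.76, 3.40 and 3.91 in WT, and the groups overlapped (log2 fold changes 0.04 and -0.02, limma adjusted p = 1 for both).

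STIM1 encodes the main sensor of ER calcium content. Its only probe set read 6.12, 6.28 and 6.26 in Del52, 6.46, 6.38 and 6.31 in Ins5 and 6.22, 6.14 and 6.23 in WT. All Ins5 arrays lay above all arrays of both other groups, whereas Del52 and WT overlapped. Ins5 against WT gave 0.19 ± 0.06 (SE, 95% interval 0.05 to 0.33), or 1.14-fold, with limma adjusted p = 0.601 and an unadjusted p = 0.0165. Del52 against Ins5 gave -0.17 ± 0.06 (adjusted p = 0.841, unadjusted p = 0.0294), and Del52 against WT 0.02 (-0.12 to 0.17, adjusted p = 1). STIM1 lay within the span of the antigenomic controls, and its value in Ins5 ran from 0.15 to 0.23 with single arrays left out.

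STIM2, the sensor that responds to smaller losses of store calcium, read 4.96, 5.09 and 4.84 in Del52, 4.85, 4.85 and 4.49 in Ins5 and 4.90, 4.78 and 5.38 in WT. WT replicate 3 was the highest and Ins5 replicate 3 the lowest array, and the groups overlapped. The log2 fold changes were -0.06 in Del52 and -0.29 in Ins5 (95% interval -0.68 to 0.10), with limma adjusted p = 1 and 0.779. The 3 other probe sets gave -0.09, -0.0012 and 0.08 in Ins5, all nearer 0 than the main one. The dimmest of them, at 2.41 to 2.69, had its 3 lowest values on the Del52 arrays (-0.11 against WT and -0.19 against Ins5, adjusted p = 0.706 and 0.772).

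The ORAI genes encode the pore of store-operated entry. ORAI1 read 6.11, 6.04 and 6.19 in Del52, 6.10, 5.93 and 6.08 in Ins5 and 6.07, 6.31 and 6.01 in WT, with overlap throughout. Its log2 fold changes were -0.02 (95% interval -0.23 to 0.18) and -0.10 (-0.30 to 0.11), with limma adjusted p = 1 and 0.913. ORAI1 has a single probe set.

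ORAI2 had the narrowest intervals of the 10 members. It read 5.12, 5.13 and 5.05 in Del52, 5.12, 5.17 and 5.26 in Ins5 and 5.12, 5.05 and 5.05 in WT. Ins5 replicate 3 was the highest array, and WT replicate 1 met the lowest Ins5 array. The log2 fold changes were 0.03 in Del52 (95% interval -0.09 to 0.15) and 0.11 in Ins5 (-0.01 to 0.23), with limma adjusted p = 0.986 and 0.682. In Ins5 the 3 other probe sets were negative (-0.01, -0.13 and -0.03), opposite in sign to the main one. The main probe set carries the suffix _x_at, which Affymetrix gives where some probes can bind unrelated transcripts.

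ORAI3 also rests on probe sets of that kind. It read 6.62, 7.29 and 6.74 in Del52, 7.26, 7.20 and 6.89 in Ins5 and 7.03, 6.42 and 7.28 in WT. WT replicates 2 and 3 were 0.86 apart, while the group means spanned 6.88 to 7.12. The log2 fold changes were -0.03 in Del52 (95% interval -0.61 to 0.56) and 0.21 in Ins5 (-0.38 to 0.79), with limma adjusted p = 1 and 0.964. The second probe set gave -0.20 and -0.00, and with the principal component as covariate the main one gave 0.01 and 0.22.

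**Figure D3:**
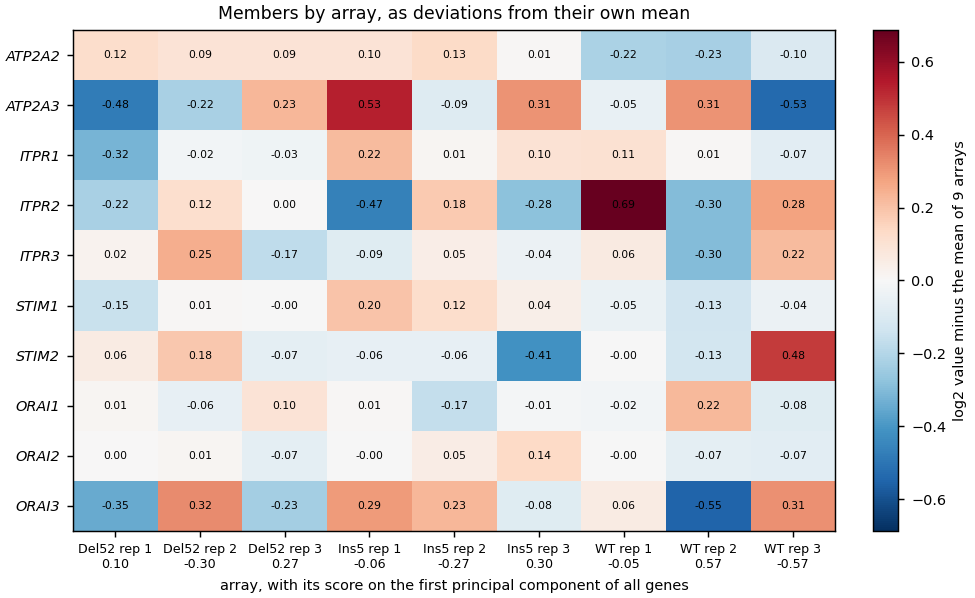
Each member's log2 value on each array minus its own mean over the 9 arrays, with the array's score on the first principal component under its name. ORAI3, ITPR3 and STIM2 are lower and ORAI1 higher in WT replicate 2 than in WT replicate 3, while ATP2A2 is below its mean on all 3 WT arrays and above it on all 6 mutant arrays.

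The members differed in how far they varied along the main array axis. Between WT replicate 2 and WT replicate 3, ORAI3 differed by -0.86, STIM2 by -0.61, ITPR2 by -0.58 and ITPR3 by -0.51, against 0.84 for ATP2A3 and 0.30 for ORAI1. The same subtraction gave -0.12 for ATP2A2, -0.09 for STIM1, 0.08 for ITPR1 and 0.01 for ORAI2. Group differences held 2.17% of the variance of ITPR3 and 11.7% of that of ORAI3, but 65.9% for STIM1 and 53.5% for ORAI2.

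Counted over the 10 members, 0 passed in any of the 4 comparisons or in the 3-group F test (limma, adjusted p), where 0% of all genes passed as well. At an unadjusted p under 0.05 there was 1 member in Del52 against WT (ATP2A2, background 7.05% of genes), 2 in Ins5 against WT (ATP2A2 and STIM1, 7.41%), 2 in Del52 against Ins5 (STIM1 and ITPR1, 5.77%) and 1 for both mutants against WT (ATP2A2, 7.97%). In the F test ATP2A2 and STIM1 were under 0.05 (7.23%). In Del52 against WT 1 member was higher without overlap and 0 lower (background 6.23% and 4.36%, 10.6% together). In Ins5 against WT 2 were higher and 0 lower (8.16% and 3.3%, 11.5% together). In Del52 against Ins5 0 were higher and 2 lower (3.81% and 6.28%, 10.1% together). For both mutants against WT 1 was higher and 0 lower (2.76% and 1.26%, 4.02% together). Whether these counts of 1 or 2 in 10 members exceed the backgrounds was not tested.

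The median log2 fold change of the members was -0.02 in Del52 against WT (4 higher, 6 lower), beside 0.01 over all genes. In Ins5 it was 0.10 (6 higher, 4 lower), beside 0.02, and in Del52 against Ins5 -0.03 (5 of each sign), beside -0.01. The median size without sign was 0.05, 0.20 and 0.16, beside 0.06, 0.06 and 0.06 over all genes. The largest in Ins5 were ITPR2 (-0.41), ATP2A3 (0.34) and STIM2 (-0.29). Their 95% intervals included 0, and their other probe sets gave smaller sizes. Members and all genes were not matched for level, and the difference in size was not tested. With sign, the Ins5 median was 0.04 without WT replicate 2 and 0.02 with all probe sets of a gene averaged. The 95% intervals against WT reached 0.12 (ORAI2) to 0.615 (ATP2A3) on either side of the estimate. For ATP2A3, ITPR2, ORAI3, STIM2 and ITPR3 that reach exceeded the difference seen in ATP2A2, which itself did not pass.

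**Figure D4:**
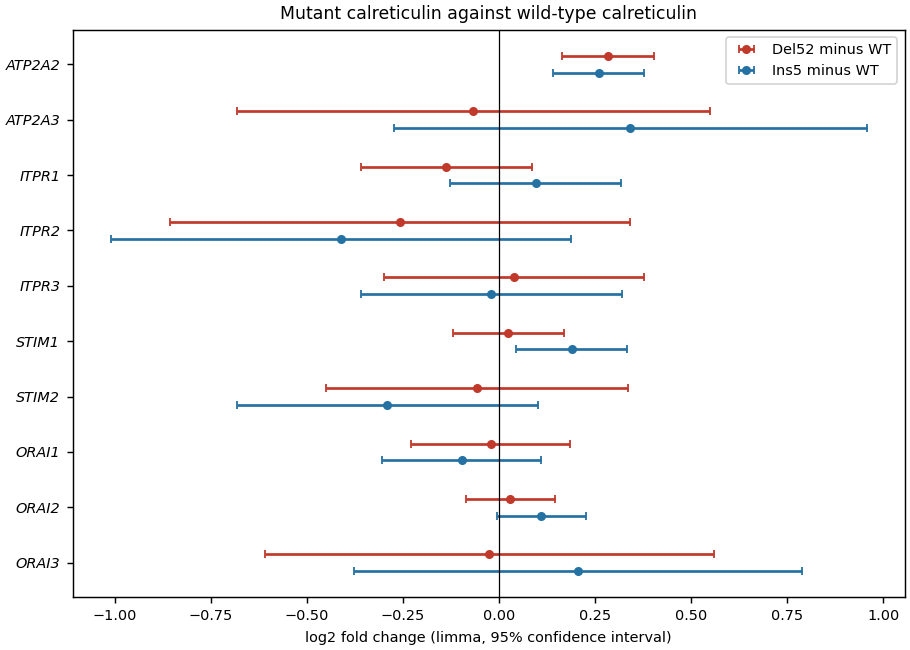
Log2 fold changes of the 10 members in Del52 minus WT and Ins5 minus WT from the limma fit of all 9 arrays, with 95% confidence intervals. The intervals exclude 0 for ATP2A2 in both mutants and for STIM1 in Ins5, before adjustment over 18239 genes.

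Genes whose levels over the 9 arrays were most like a member's were sought among 9111 genes above the median level. For ATP2A2 they were NDUFB11, SDF4 and RPS6KB2 (Pearson r = 0.96, 0.95 and 0.95), for STIM1 they were PXN, LYN and RAB11B (0.97, 0.96 and 0.96), and for ATP2A3 they were OPLAH, TLNRD1 and HAUS4 (0.99, 0.98 and 0.98). ORAI3 was nearest to SMYD4, FEZ2 and EIF4EBP1 (1.00 rounded from 0.9968, 0.99 and 0.99). The nearest genes of the other members were H1-10 for ITPR1, STAM2 for ITPR2, DHX15 for ITPR3, LIN52 for STIM2, PCOLCE for ORAI1 and CDK5RAP2 for ORAI2, with r between 0.98 and 1.00. These are the highest of 9111 values each over arrays that share 1 main axis, and they are given as a description.

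The surrounding calcium pathway was read from 93 related genes, of which 82 were measured. None passed in any comparison (limma, adjusted p). In Del52 against WT 45 were higher and 37 lower, with a median of 0.02 beside 0.01 over all genes. An unadjusted p under 0.05 was reached by 6 of 82 (7.32%, background 7.05%), all higher in Del52. In Ins5 against WT 49 were higher (median 0.02, 8 of 82 or 9.76% under 0.05, background 7.41%), and in Del52 against Ins5 37 were higher (median -0.01, 4 of 82 or 4.88%, background 5.77%).

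Luminal calcium binders held 4 of the 6 unadjusted p-values under 0.05 in Del52 (4 of 12, or 33.3%, beside 7.05% of all genes) and 2 of the 8 in Ins5 (2 of 12, or 16.7%, beside 7.41%). PDIA3, a disulfide isomerase that works with calreticulin, read 9.26, 9.13 and 9.11 in Del52, 9.10, 9.09 and 8.90 in Ins5 and 8.58, 8.73 and 8.93 in WT. The Del52 arrays lay above all WT arrays, while Ins5 replicate 3 lay below WT replicate 3 (0.42 ± 0.10 SE in Del52, 0.28 ± 0.10 in Ins5, limma adjusted p = 0.603 and 0.614). SDF4, a calcium-binding protein of the secretory pathway, read 7.11, 7.07 and 7.04 in Del52, 7.08, 7.09 and 7.07 in Ins5 and 6.92, 6.95 and 6.99 in WT, with no overlap (0.12 and 0.13, adjusted p = 0.606 and 0.573). The chaperone HSP90B1 likewise separated both mutants from WT, with 11.23, 11.06 and 11.01 in Del52, 11.01, 11.08 and 11.08 in Ins5 and 10.82, 10.93 and 10.99 in WT (0.19 and 0.14, adjusted p = 0.655 and 0.712).

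The 12 luminal binders had medians of 0.03 in Del52 and 0.12 in Ins5, beside 0.01 and 0.02 over all genes. Of the 12, 9 were higher in Del52 and 9 in Ins5, beside 54.6% and 59.6% of all genes. The negative ones were CALR and CALU in both mutants, with NUCB2 in Del52 and RCN2 in Ins5. Of the genes with an unmismatched motif printed above, HSP90B1 had 0.19 in Del52 and 0.14 in Ins5, without overlap with WT. HSPA5, the chaperone BiP, had 0.26 in Del52 and 0.13 in Ins5 (limma adjusted p = 0.655 and 0.854) and overlapped with WT. The chaperone CANX had 0.03 and 0.02 (adjusted p = 0.986 and 1), and CALR had -0.15 and -0.16 (0.918 and 0.893). PDIA3 had no promoter window in the table used here, so the motif was not read for it.

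Regulators of store-operated entry gave different counts in the mutants, a difference that was not tested as such. The class was not split by whether a gene promotes or restrains entry, so its counts give no direction for entry itself. All 10 had higher means in Ins5 than in WT (median 0.07, range 0.01 to 0.20), beside 59.6% of all genes. In Del52 6 of 10 did (median 0.03), beside 54.6% of all genes. Of the 10, 1 had a higher mean in Del52 than in Ins5 (median -0.04), beside 45.4% of all genes, a comparison that shares the Ins5 arrays with the first. STIMATE, CRACR2A, CRACR2B, TMEM178A and TRPC1 lay within the antigenomic span on every array, and the largest Ins5 value, 0.20, was that of TMEM178A at 1.95 to 2.42. ESYT1, a tether between ER and plasma membrane, read 9.16, 9.33 and 9.33 in Del52, 9.54, 9.36 and 9.49 in Ins5 and 9.33, 9.33 and 9.21 in WT. CRACR2B, which binds ORAI1, read 4.07, 4.07 and 4.06 in Del52, 4.15, 4.15 and 4.16 in Ins5 and 4.07, 4.07 and 4.07 in WT. As with STIM1, every Ins5 array of both genes exceeded every other array, with log2 fold changes against WT of 0.17 and 0.09 (limma adjusted p = 0.651 and 0.640). ASPH, whose locus also encodes junctional ER proteins, read 5.91, 6.26 and 6.32 in Del52 and 6.62, 6.50 and 6.37 in Ins5 (-0.33 ± 0.12 SE, adjusted p = 0.841).

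In the remaining classes, LETM1, an ion exchanger of the inner mitochondrial membrane, lay within the antigenomic span on every array. It read 5.58, 5.56 and 5.58 in Del52, 5.48, 5.58 and 5.44 in Ins5 and 5.37, 5.29 and 5.42 in WT, with both mutants above WT (0.22 and 0.14, limma adjusted p = 0.603 and 0.637). The phospholipase PLCB4, which makes IP3, was also higher in both (0.15 and 0.10, adjusted p = 0.603 and 0.668), at 2.27 to 2.49, near the floor of the array. The ryanodine receptor genes RYR1 (0.09 in Ins5 against WT) and RYR3 (-0.21 in Del52 against Ins5) lay between 1.95 and 3.29. SERCA regulators and other pumps had medians of -0.02 and -0.01, with 0 of 12 under an unadjusted p of 0.05 in either mutant. Of these 12 genes, 8 lay within the antigenomic span on every array.

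**Figure D5:**
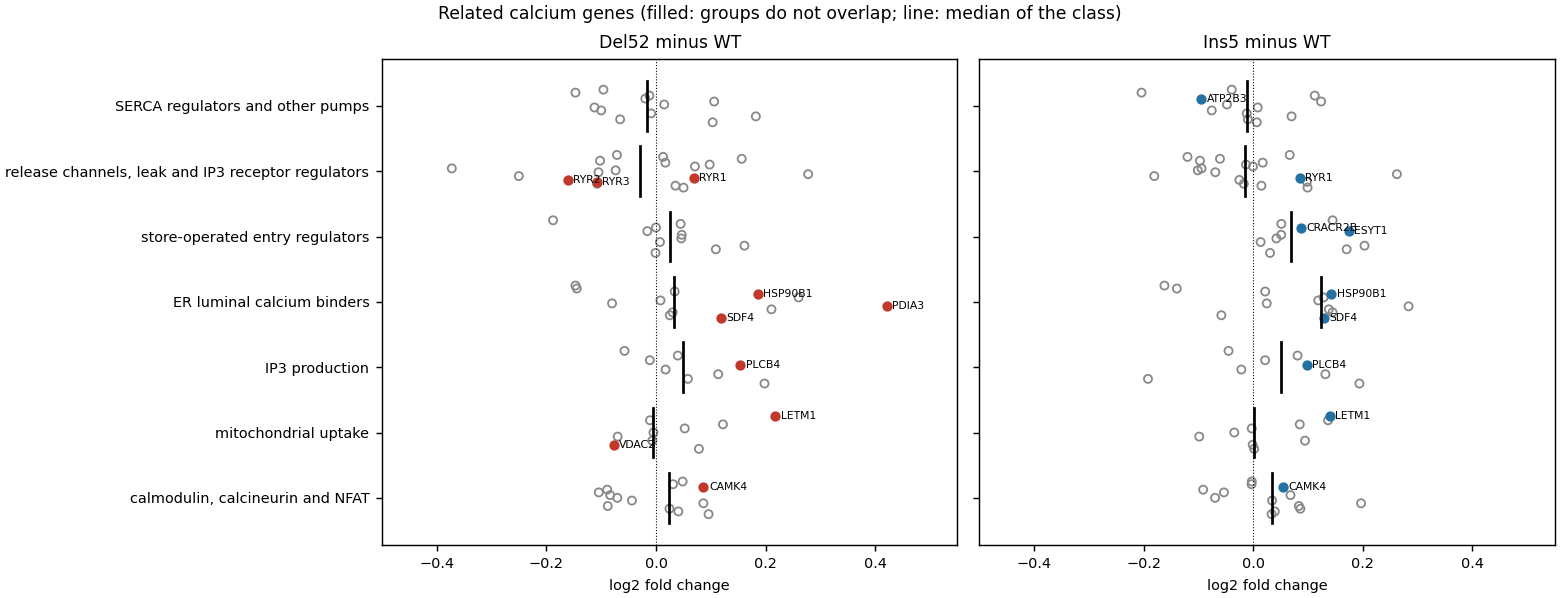
Log2 fold changes of 82 related calcium genes by class in Del52 minus WT and in Ins5 minus WT, 1 point per gene, with the class median as a line and genes whose groups do not overlap filled and named. Luminal binders, IP3-producing enzymes, store-operated entry regulators and the calmodulin, calcineurin and NFAT class have positive medians in both mutants, as do all genes together. All 10 store-operated entry regulators lie above 0 in Ins5. Within the antigenomic span on every array lie 8 of 8 IP3-producing enzymes, 9 of 13 genes of the calmodulin class and 5 of 10 entry regulators.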

How the data were processed

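Gene expression was measured in 9 K562 samples on Affymetrix arrays. The authors deposited a log2 expression value for each probe set, and the submitters' processing notes name Partek and RMA. RMA corrects background, normalizes between arrays and summarises probes, which compresses small signals. No source used here gives versions, settings or the build of the array annotation. Precision is limited by the 3 arrays per group. Among 49386 probe sets were 93 controls, 1327 with several gene symbols and 2713 with none, all left out. Of the 45253 with a single symbol, 45172 matched the RefSeq gene table by identifier.

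All 9 arrays entered 1 limma 3.58.1 fit (R 4.3.3) of group means with moderated variances and 6 residual degrees of freedom, with two-sided p-values adjusted by Benjamini-Hochberg over 18239 genes and called under 0.05. The fit was tested on simulated data with independent noise for each gene, so that test did not cover the shared array axis. Alternatives covered normalization, dim genes, probe sets, variance models, array weights, pairing, the first principal component, a threshold of 0.10 and left-out arrays.

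Members, lists, tests and motif were chosen with earlier results of these data known. The text names all members, CALR, NGFR, 1 to 3 of the 3 genes most like each member and, as no related gene passed, the 4 smallest p-values per comparison among related genes without overlap. NGFR averaged 3.42 in Del52, 3.43 in Ins5 and 3.36 in WT. It lay within the antigenomic span on every array, and its probes' position relative to the transduced sequence is not known here, so it does not check the selection. HSPA5, CANX, CALU, PDIA4, NUCB1, NUCB2, RCN1, RCN2, STIMATE, CRACR2A, TMEM178A and TRPC1 were named after their values or motifs were seen.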

Additional observations from a re-analysis of the deposited data

How the results depend on the processing

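The count of members called was 0 under 21 of 22 alternatives in Del52 against WT, 21 of 22 in Ins5 against WT, 22 of 22 in Del52 against Ins5, 19 of 21 for both mutants against WT and 19 of 20 in the F test. Array weights called 3 members in Del52 against WT, 3 in Ins5 against WT, 2 for both mutants against WT and 4 in the F test, together with 3190, 4017, 6232 and 5345 genes in all. That setting gave WT replicate 1 a weight of 67, against at most 1.82 for any other array, and its fit stopped before convergence. ITPR2 had -0.77 in Del52 and -0.98 in Ins5 there (limma adjusted p = 0.0235 and 0.00632). The principal component as covariate called 1 member, ATP2A2, for both mutants against WT.

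Median log2 fold changes with 1 array left out ranged from -0.06 to 0.03 in Del52 against WT, from 0.04 to 0.14 in Ins5 against WT, from -0.07 to -0.01 in Del52 against Ins5 and from -0.03 to 0.07 for both mutants against WT. The ends were -0.0561 (without WT replicate 2) and 0.0316 (without Del52 replicate 1), 0.0428 (without WT replicate 2) and 0.1371 (without WT replicate 1), -0.0725 and -0.0133, and -0.0264 (without Del52 replicate 2) and 0.0682. The Ins5 median was 0.022 with all probe sets averaged, 0.0423 with array weights, 0.0347 without both ends of the main axis and 0.0426 with every probe set on its own. Over the 8 members above the median level, Del52 against Ins5 gave -0.1231.

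Of 858 alternative values for single members 80 had the opposite sign, none of them called. ATP2A2 kept its sign in every setting and probe set against WT. Correlations of deviations between same-numbered replicates ran from -0.92 to 0.64. They were positive only between Del52 and Ins5, for replicates 2 and 3 (0.64 and 0.57). With 3 arrays per group that share 1 main axis, these correlations cannot decide whether the numbers mark a pairing. With the replicate number as a block 0 members were called, and the ATP2A2 values stayed at 0.28 and 0.26 (limma adjusted p = 1 for both).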
